A study of Homo sapiens with 6 samples.

Results

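The genes described here were 9 of the 58735 rows of an expression table, taken by name: ATF4, DDIT3, TRIB3, DDIT4, ASNS, PHGDH, PSAT1, PSPH and SHMT2. They belong to the stress response run by the transcription factor ATF4 and to serine synthesis, and were chosen by name with earlier results of these data known. RNA sequencing was performed on MDA-MB-231 cells, a human breast adenocarcinoma line of basal type. Doses of gamma radiation from a caesium source were compared, 0 Gy and 10 Gy, with 3 libraries each, and RNA was taken 24 h later. All 6 libraries carry the name SCR in their labels, which is the non-targeting shRNA control of the study (shSCR), while the genotype is labelled WT. Going by the name SCR, every cell measured here was of this control kind, which the genotype label does not state. No library labelled as MAFF knockdown was analysed. No source says whether the 3 libraries of a dose came from separate cultures, so the p-values measure the spread between these libraries, which may be technical. The sole time point and dose allow no course over time or dose.

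ATF4 is a bZIP transcription factor whose protein is made when the translation factor eIF2 is phosphorylated during amino acid shortage, protein misfolding in the endoplasmic reticulum or mitochondrial stress. Since this control acts mainly on translation, the amount of ATF4 mRNA is only part of its activity. ATF4 drives genes for amino acid uptake and synthesis, including the serine pathway, in which PHGDH, PSAT1 and PSPH act one after the other and SHMT2 turns serine into glycine and a one-carbon unit in mitochondria. DDIT3 (CHOP), TRIB3 and DDIT4 (REDD1) are stress genes that ATF4 also switches on, and ASNS, which makes asparagine, is a classical readout of the response.

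Promoter sequence from RefSeq was at hand for 7 of the 9 genes, and PSPH and SHMT2 had no entry. The 250 bases before each start were searched on both strands for the C/EBP-ATF response element to which ATF4 binds (TGATGNAA), the E-box (CACGTG), the core of the hypoxia response element (ACGTG, which lies inside the E-box) and the CCAAT box (CCAAT). These motifs were chosen after the sequences had been seen. The first motif was found in 3.14% of 35116 RefSeq windows of this length, the E-box in 6.34%, the hypoxia core in 18.5% and the CCAAT box in 32.0%. Stretches of 4 genes are shown for these reasons. ASNS held the only C/EBP-ATF match among the 7 genes, ATF4 the only E-box and PSAT1 the most CCAAT boxes. DDIT4, the only one of the 9 genes called higher after 10 Gy, held a hypoxia core. ATF4, which was called lower, held that core too, inside its E-box. Capitals mark the matches, all sequences run 5′ to 3′ on the gene's strand, and the build is GRCh38.p14. The ASNS stretch is chr7:97872458-97872487 on the minus strand, the ATF4 stretch chr22:39520465-39520494 on the plus strand, the PSAT1 stretch chr9:78296875-78297124 on the plus strand and the DDIT4 stretch chr10:72273674-72273919 on the plus strand. The first pair is cut to 30 bases because GENCODE places exons of longer transcripts there, and the other pair lies outside annotated exons.
ASNS: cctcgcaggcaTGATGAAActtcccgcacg
ATF4: ggaggagacggtCACGTGgtcgcggcggaa
PSAT1: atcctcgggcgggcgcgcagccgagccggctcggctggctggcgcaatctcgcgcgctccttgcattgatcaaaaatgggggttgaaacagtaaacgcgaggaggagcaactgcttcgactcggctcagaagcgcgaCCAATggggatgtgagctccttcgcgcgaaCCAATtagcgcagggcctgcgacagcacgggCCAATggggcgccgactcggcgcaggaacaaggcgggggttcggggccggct
DDIT4: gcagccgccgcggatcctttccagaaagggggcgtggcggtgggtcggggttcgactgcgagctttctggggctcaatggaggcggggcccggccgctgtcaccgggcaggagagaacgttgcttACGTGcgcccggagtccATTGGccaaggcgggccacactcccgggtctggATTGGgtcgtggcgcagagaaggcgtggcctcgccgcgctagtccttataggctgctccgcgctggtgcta
In the first window of each gene, the ASNS match began 68 bases before the RefSeq start and the ATF4 E-box 82 bases before it. The 3 CCAAT boxes of PSAT1 began 113, 83 and 52 bases before its start. In DDIT4 the hypoxia core began 125 bases before the start, followed by CCAAT boxes on the other strand at 108 and 75. DDIT3 held CCAAT boxes at 100 and 76 bases and PHGDH held one at 71 bases, whereas none of the 4 motifs was found in any of the TRIB3 windows. A match describes these letters in this window and does not show that a factor binds there.

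The values are FPKM, fragments per kilobase of gene scaled to a depth per library. They are per length and allow levels of different genes to be set side by side on the length used for each. The libraries held between 15643641 and 28861781 reads on genes, as recovered from the FPKM. The depth implied by the FPKM was 0.973, 0.983 and 0.991 times these reads at 0 Gy. At 10 Gy it was 1.036, 1.039 and 1.028 times these reads. The deposited values thus hold a factor per library that differs between doses, and its part in the changes was not tested separately. Changes are given as log2(FPKM + 1) at 10 Gy minus that at 0 Gy, which understates the change of low genes, with limma's moderated test over 12128 genes whose mean was 1 FPKM or more and Benjamini-Hochberg adjustment. A gene was called at an adjusted p under 0.05. Across all genes tested 35.6% were called, 11.9% higher and 23.7% lower after 10 Gy, with a median change of -0.04. This split depended on scaling: with each library rescaled to the same sum (TPM), 25.5% of the calls were lower in place of 66.6%. The median of all genes then moved up by 0.12, to 0.08. With TPM scaling 3113 of the 12128 genes tested were called higher and 1066 lower. Counts with TPM scaling in the lists below stand beside these. Markers of MDA-MB-231 were present, with 8 of 8 between 75.8 and 478 FPKM on average, while of 7 luminal and epithelial markers PGR was at 0 in every library, ESR1, CDH1 and FOXA1 were under 1 FPKM, and ERBB2 (7.08 FPKM at 0 Gy), GATA3 (3.05) and EPCAM (1.44) were detected. Among 11 markers of leukocytes, endothelium and fibroblasts, 7 were under 1 FPKM and CD3E was at 0 in every library. Their summed level was 6.98 to 8.21 FPKM at 0 Gy and 9.79 to 10.6 FPKM at 10 Gy, with PECAM1 (0.40, SE 0.06, adjusted p = 0.0027) and COL1A1 (0.37, SE 0.05, adjusted p = 0.0017) higher at 10 Gy, and their part in the results below was not tested. In bulk RNA, fewer cells that express a gene and less RNA of it per cell cannot be told apart.

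Of the 9 genes, 7 passed the minimum of 1 FPKM and all 7 were called, 6 of them lower and DDIT4 higher, against 35.6% of all genes tested. The groups did not overlap for any of the 7, against 51.9% of all genes tested (32.8% lower and 19.1% higher). A change of at least 1.3-fold with a call was reached by 4 of the 7, namely TRIB3, PSAT1 and SHMT2 downwards and DDIT4 upwards, against 5.77% of all genes tested (2.95% lower and 2.82% higher). Both remaining genes, PHGDH and ASNS, lay under the minimum and were not tested.

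**Figure D1:**
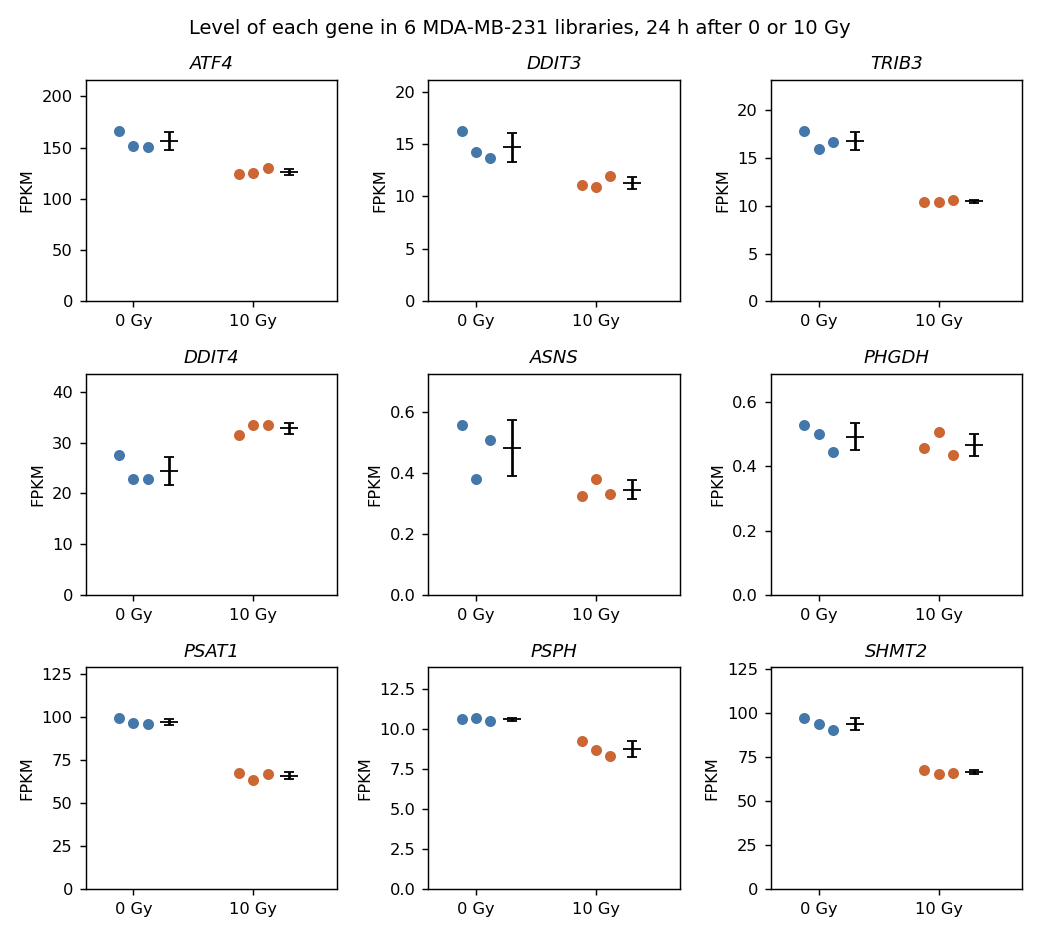
FPKM of each of the 9 genes (vertical axes, each from 0) in the 3 libraries at 0 Gy and the 3 at 10 Gy (points, replicates 1 to 3 from left to right), with the mean and SD beside them (cross and bars). The 10 Gy points lie below all 0 Gy points for ATF4, DDIT3, TRIB3, PSAT1, PSPH and SHMT2 and above them for DDIT4, and the groups overlap for ASNS and PHGDH.

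In unirradiated cells the order of mean levels was ATF4, PSAT1, SHMT2, DDIT4, TRIB3, DDIT3, PSPH and PHGDH, with ASNS left out because its value cannot be read as a level. The ATF4 mean was 1.60 times the PSAT1 mean, and the lowest ATF4 library lay above the highest PSAT1 library. PSAT1 and SHMT2 could not be ordered because their libraries overlapped, nor could TRIB3 and DDIT3. All other neighbours were apart. The order at either dose holds for the lengths used, which are sums of exons over all annotated transcripts of a gene. These were 4838 bases over 35 transcripts for SHMT2 and 2188 over 2 for PSAT1. For TRIB3 the length was 3434 bases, and for DDIT3 it was 1307 against 940 for its longest principal transcript. Per base of the transcripts made, the order may differ. The ATF4 mean lay above 98.3% of the genes tested and that of PSAT1 above 96.7%, whereas PSPH lay above 61.8%. Within the serine pathway the levels were thus uneven, since the second enzyme, PSAT1, stood at 97.4 FPKM ± 1.77 (SD, n = 3), the third, PSPH, at 10.6 ± 0.0838, and the first, PHGDH, at 0.492 ± 0.0424. No ratio of PSPH to PHGDH is given, since the length used for PHGDH and a pseudogene of PSPH, both described with these genes, limit it. At 10 Gy the order was ATF4, SHMT2, PSAT1, DDIT4, DDIT3, TRIB3, PSPH and PHGDH, and SHMT2 and PSAT1 were then the only neighbours to overlap. DDIT3 and TRIB3, which overlapped at 0 Gy, were apart at 10 Gy, with all DDIT3 libraries at or above 10.9 FPKM and all TRIB3 libraries at or below 10.6 FPKM.

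ATF4 (ENSG00000128272, chr22:39519695-39522685, plus strand, GRCh38) stood at 166, 152 and 150 FPKM in the 3 libraries at 0 Gy and at 124, 125 and 130 FPKM in the 3 at 10 Gy. All libraries at 10 Gy were below all at 0 Gy, and replicate 1 was the highest of the controls. The mean fell from 156 ± 8.76 (SD, n = 3) to 126 ± 3.05 FPKM, a log2 change of -0.30 (SE 0.05, limma adjusted p = 0.0033). With TPM scaling the change was -0.18 and was still called (adjusted p = 0.0077). Between 5749 and 9334 reads per library lay behind these values, and no other annotated gene shares its exons. Pseudogenes are annotated for ATF4, PSAT1, ASNS and PSPH, and the treatment of reads that match several places is not given in the sources used here.

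TRIB3 (ENSG00000101255, chr20:362835-397559, plus strand) is a pseudokinase that ATF4 and CHOP induce and that restrains ATF4 in turn. It stood at 17.9, 16.0 and 16.7 FPKM at 0 Gy and at 10.4, 10.4 and 10.6 FPKM at 10 Gy. The irradiated libraries lay close together, all well below the controls. The mean fell from 16.8 ± 0.956 to 10.5 ± 0.141 FPKM (SD, n = 3), with a log2 change of -0.63 (SE 0.04, limma adjusted p = 0.00044), the largest in size among the 7 genes tested except with TPM scaling (DDIT4 0.56, TRIB3 -0.54) and a pseudocount of 5 (PSAT1 -0.53, TRIB3 -0.50).

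DDIT3 (ENSG00000175197, chr12:57516588-57521737, minus strand) encodes CHOP, a bZIP factor linked to cell death under prolonged stress. It stood at 16.3, 14.2 and 13.6 FPKM at 0 Gy and at 11.1, 10.9 and 11.9 FPKM at 10 Gy. Replicate 1 at 0 Gy was the highest, and the groups did not overlap. The log2 change was -0.35 (SE 0.07, limma adjusted p = 0.0077). Of its 1307 exon bases, 355 (27.2%) are shared with MARS on the opposite strand, a tRNA synthetase gene at 32.1 to 41.4 FPKM that also fell (log2 change -0.28, SE 0.04, limma adjusted p = 0.0032), and 58 with MBD6. Whether the counting used strand is not stated in the sources used here, so reads of these genes in the shared bases cannot be told apart, and the DDIT3 level rests on 260 to 453 reads per library.

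DDIT4 (ENSG00000168209, chr10:72273920-72276036, plus strand) encodes REDD1, which restrains the growth kinase complex TORC1 and is also induced by hypoxia, glucocorticoids and DNA damage. It was the only one of the 7 tested genes to rise. The levels were 27.5, 22.9 and 22.8 FPKM at 0 Gy and 31.6, 33.5 and 33.4 FPKM at 10 Gy. Every irradiated library lay above every control, although control replicate 1 stood above the other controls. The mean rose from 24.4 ± 2.68 to 32.8 ± 1.11 FPKM (SD, n = 3), a log2 change of 0.42 (SE 0.07, limma adjusted p = 0.0049). Of its 2058 exon bases, 847 (41.2%) are shared with DDIT4-AS1 on the opposite strand, which was listed at 0 in every library.

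PSAT1 (ENSG00000135069, chr9:78297143-78330093, plus strand) transfers an amino group from glutamate in the second step of serine synthesis. It stood at 99.3, 96.9 and 95.9 FPKM at 0 Gy and at 67.3, 63.4 and 67.1 FPKM at 10 Gy. The spread within each group was small beside the gap between them. The log2 change was -0.56 (SE 0.03, limma adjusted p = 0.00038).

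PSPH (ENSG00000146733, chr7:56011051-56051604, minus strand) removes the phosphate in the last step. It stood at 10.6, 10.7 and 10.5 FPKM at 0 Gy and at 9.29, 8.69 and 8.29 FPKM at 10 Gy. The groups did not overlap, and the irradiated libraries were more spread than the controls. The log2 change was -0.25 (SE 0.04, limma adjusted p = 0.0054). The pseudogene PSPHP1, named here after its values were seen, was counted at a level like that of PSPH, with 10.8, 10.5 and 9.55 FPKM at 0 Gy and 11.7, 10.5 and 13.6 FPKM at 10 Gy. It overlapped between doses and was not called (log2 change 0.19, SE 0.09, limma adjusted p = 0.13), and reads that fit both copies make the PSPH level uncertain. The fall of PSPH was not called with TPM scaling (-0.15, adjusted p = 0.078), nor by voom on recovered reads without a minimum level (-0.19, adjusted p = 0.087).

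SHMT2 (ENSG00000182199, chr12:57229327-57234935, plus strand) passes the serine carbon on to folate in mitochondria. It stood at 96.7, 93.8 and 90.4 FPKM at 0 Gy and at 67.4, 65.4 and 65.7 FPKM at 10 Gy. Controls and irradiated libraries were again clearly apart. The log2 change was -0.49 (SE 0.03, limma adjusted p = 0.00044), and 427 of its 4838 exon bases (8.83%) are shared with AC137834.2 on the opposite strand, which reached at most 0.198 FPKM.

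PHGDH (ENSG00000092621, chr1:119648411-119744226, plus strand) is the first enzyme of the pathway. Its levels were 0.529, 0.501 and 0.446 FPKM at 0 Gy and 0.457, 0.505 and 0.436 FPKM at 10 Gy. The groups overlapped, and no difference was detectable at this depth, which gave 71 to 126 reads per library. Fitted without the minimum level, the log2 change was -0.03 (limma adjusted p = 0.84). The length behind its FPKM was 9217 bases, the sum of exons over 34 annotated transcripts, against 2585 bases for its longest principal transcript, so the level would be higher per base of that transcript.

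ASNS (ENSG00000070669, chr7:97852118-97872542, minus strand) stood at 0.558, 0.380 and 0.508 FPKM at 0 Gy and at 0.323, 0.381 and 0.332 FPKM at 10 Gy. Only control replicate 2 fell among the irradiated libraries, and the others lay above them. These levels rest on 26 to 53 reads per library, and without the minimum level the log2 change was -0.14 (limma adjusted p = 0.32). The same strand carries AC079781.5 (chr7:97851688-97972985), named here after its values were seen, which shares 1985 of the 4455 exon bases of ASNS (44.6%) and 1683 of its 1752 coding bases (96.1%). Reads in the shared bases fit both genes, and how they were counted is not given in the sources used here, so the ASNS value cannot be read as the level of the gene. AC079781.5 itself held 27 to 66 reads per library.

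**Figure D2:**
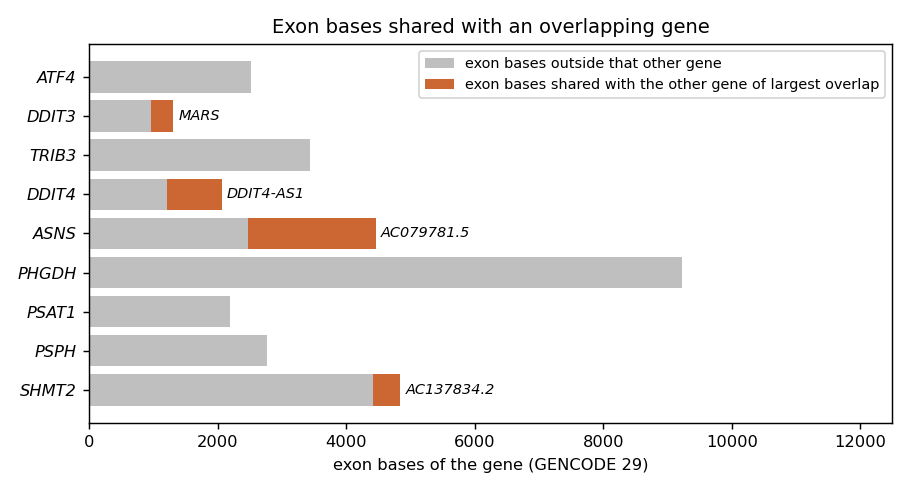
Exon bases of each of the 9 genes in GENCODE 29 (horizontal axis, bases), with the bases shared with the other gene of largest overlap in colour and that gene's name at the end of the bar. ASNS shares 1985 bases and DDIT4 847, whereas ATF4, TRIB3, PHGDH, PSAT1 and PSPH share none.

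**Figure D3:**
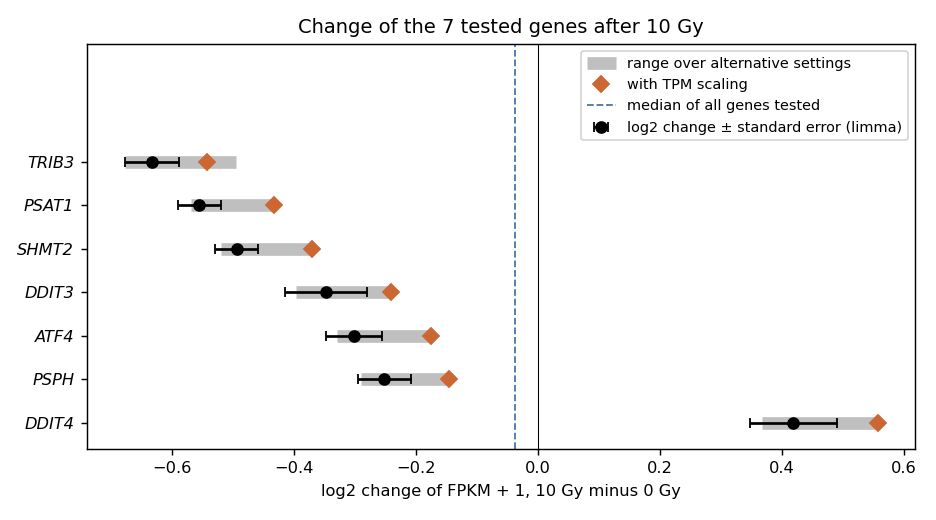
Change of the 7 tested genes, 10 Gy minus 0 Gy (horizontal axis), on the log2(FPKM + 1) scale with its standard error (points and bars). Grey gives the range over the 18 alternative settings and diamonds the value with TPM scaling. Settings with another pseudocount, another scaling or voom have a log2 scale of their own. The change of TRIB3 is -0.63 and that of DDIT4 0.42, and no range crosses 0.

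Control replicate 1 was the highest of the 3 controls for 8 of the 9 genes, PSPH being the exception. Among all genes tested, which leave out ASNS and PHGDH, it was the highest for 43.8%. Leaving it out left all 7 calls in place, as did leaving out any other single library, with changes between -0.67 and -0.59 for TRIB3 and between 0.37 and 0.50 for DDIT4.

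Because a scaling factor of a library cancels in a ratio of genes of that library, 8 such ratios were compared, chosen after the changes had been seen. With 3 libraries against 3, the two-sided exact permutation test cannot go below p = 0.1, so none could pass 0.05. The ratio of TRIB3 to ATF4 was 0.107, 0.105 and 0.111 at 0 Gy and 0.0840, 0.0828 and 0.0819 at 10 Gy (n = 3, exact permutation p = 0.1, 0.133 adjusted over 8 ratios). The groups were apart. PSAT1 to ATF4 had a mean of 0.624 ± 0.0232 at 0 Gy and 0.522 ± 0.0184 at 10 Gy (SD, n = 3, exact permutation p = 0.1), and SHMT2 to ATF4 of 0.600 ± 0.0175 and 0.524 ± 0.0184 (SD, n = 3, exact permutation p = 0.1). For these 3 genes the ratio was lower in each irradiated library than in any control. DDIT3 to ATF4, at 0.0939 ± 0.00356 and 0.0894 ± 0.00248, overlapped between doses (n = 3, exact permutation p = 0.2, adjusted 0.229), and so did PSPH to ATF4, at 0.0680 ± 0.00349 and 0.0693 ± 0.00547 (n = 3, exact permutation p = 1). DDIT4 to ATF4 was higher in each irradiated library, with 0.156 ± 0.00817 at 0 Gy and 0.260 ± 0.00704 at 10 Gy (n = 3, exact permutation p = 0.1). Within the serine pathway, PSPH to PSAT1 was 0.109 ± 0.00158 at 0 Gy and 0.133 ± 0.00806 at 10 Gy (n = 3, exact permutation p = 0.1), while SHMT2 to PSAT1 was 0.962 ± 0.0163 and 1.00 ± 0.0260 (n = 3, exact permutation p = 0.1), both without overlap. Reads that fit both PSPH and its pseudogene PSPHP1 make the ratios with PSPH uncertain as well.

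**Figure D4:**
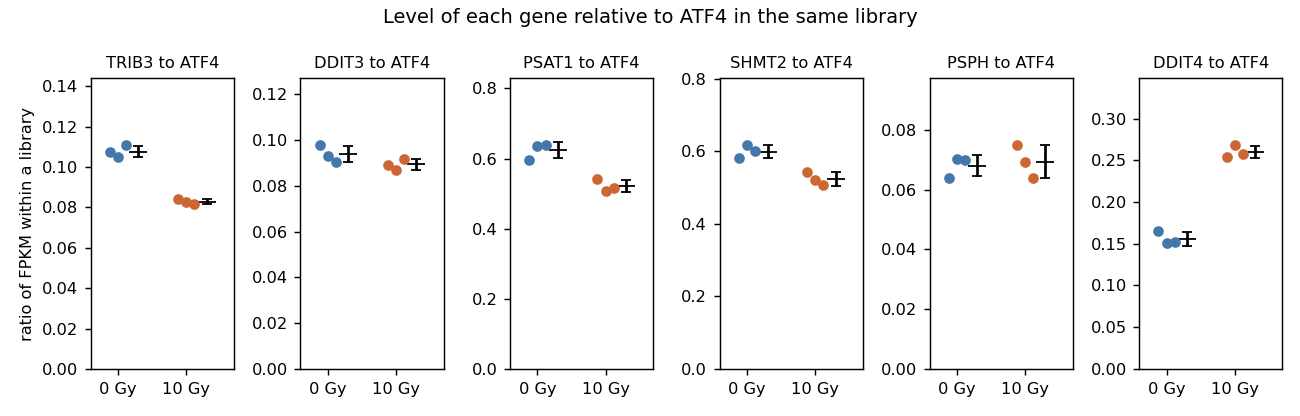
FPKM of 6 genes divided by that of ATF4 in the same library (vertical axes, each from 0), for the 3 libraries at 0 Gy and the 3 at 10 Gy (points), with the mean and SD (cross and bars). TRIB3, PSAT1 and SHMT2 lie lower at 10 Gy and DDIT4 higher, while DDIT3 and PSPH overlap between doses.

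The genes whose log2(FPKM + 1) values ran most like ATF4 over the 6 libraries were HINT1 and TMEM109 (Pearson r = 0.9995 each) and PPIA (0.9993), and 1183 genes tested reached 0.95. For TRIB3 they were RBM17 (0.9994), SLC3A2 (0.9991), a subunit of amino acid transporters, and H1F0 (0.999), with 1255 genes at 0.95 or more. These 6 points fall into the 2 dose groups, so such values mostly rank the genes by how they differ between doses.

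Upstream of ATF4, the list of eIF2 kinases, eIF2 subunits, the exchange factor eIF2B and the eIF2 phosphatase had 18 genes, all tested. None was called higher and 7 were called lower (38.9%), against 11.9% and 23.7% of all genes tested. The median was -0.12 against -0.04 over all genes tested. With TPM scaling 3 were higher and 2 lower, and the median was 0.01 against 0.08 over all genes tested. The count of 7 also dropped to 4, 3 and 4 without 10 Gy replicate 1, 2 or 3. PPP1R15A (GADD34), which directs the phosphatase to eIF2 and is itself induced by ATF4, was the most changed, from 92.0 ± 5.56 to 59.2 ± 0.912 FPKM (SD, n = 3; log2 change -0.63, SE 0.05, limma adjusted p = 0.00051). The subunits EIF2S1 (-0.26, SE 0.03, adjusted p = 0.0010) and EIF2S2 (-0.21, SE 0.04, adjusted p = 0.0070) and the eIF2B subunit EIF2B3 (-0.22, SE 0.05, adjusted p = 0.014) were lower. The last 2 were no longer called with TPM scaling. None of the 4 eIF2 kinases was called, their changes being 0.06 for EIF2AK1 (HRI), 0.06 for EIF2AK2 (PKR), 0.03 for EIF2AK3 (PERK) and -0.02 for EIF2AK4 (GCN2).

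Among bZIP factors that pair with ATF4 or are related to it, 15 of 18 were tested. Of these, 5 were called lower (33.3%) and none higher, against 23.7% and 11.9% of all genes tested. The median was -0.10, which turned to 0.03 with TPM scaling (3 lower, 4 higher), against 0.08 over all genes tested with that scaling. CEBPG, a partner of ATF4 at amino acid genes, fell from 22.7 ± 0.241 to 17.2 ± 0.454 FPKM (SD, n = 3; log2 change -0.38, SE 0.03, limma adjusted p = 0.00059). JDP2 (-0.30, SE 0.05, adjusted p = 0.0043), ATF1 (-0.26, SE 0.04, adjusted p = 0.0039) and CREB1 (-0.22, SE 0.04, adjusted p = 0.0093) were also lower, CREB1 not with TPM scaling. ATF3, a stress factor induced by ATF4, was low, at 1.45 FPKM on average at 0 Gy and 1.88 at 10 Gy, and was not called (0.24, adjusted p = 0.066).

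Of 32 other targets of ATF4, 14 of which also stand in other lists here, 25 were tested. Of these, 15 were called lower (60%) and 3 higher (12%), against 23.7% and 11.9% of all genes tested. The median was -0.23. With TPM scaling 8 were lower and 6 higher, against 1066 lower and 3113 higher among the 12128 genes tested. SLC7A11, the cystine transporter, fell from 18.8 ± 1.20 to 11.3 ± 0.631 FPKM (SD, n = 3; log2 change -0.69, SE 0.06, limma adjusted p = 0.00059). GADD45A, a stress gene of growth arrest (-0.66, SE 0.07, adjusted p = 0.0012), and EIF4EBP1, which restrains cap-dependent translation (-0.54, SE 0.05, adjusted p = 0.00060), fell as well, as did PPP1R15A above. The 3 genes called higher, named after their values were seen, were VEGFA (0.20, adjusted p = 0.0042), TNFRSF10B (0.19, adjusted p = 0.0085) and KLHL24 (0.29, adjusted p = 0.023). VEGFA encodes a growth factor for vessels and TNFRSF10B a death receptor.

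Amino acid transporters under ATF4 overlapped with this list in SLC7A11. Of 12, 11 were tested, and 7 were called lower (63.6%) and none higher, against 23.7% and 11.9% of all genes tested. The median was -0.21, and with TPM scaling 4 were lower and 2 higher. SLC3A2, the partner chain of SLC7A11, fell from 73.2 ± 2.49 to 54.5 ± 0.400 FPKM (SD, n = 3; log2 change -0.42, SE 0.03, limma adjusted p = 0.00059). The glutamine and neutral amino acid transporters SLC1A5 (-0.34, SE 0.04, adjusted p = 0.00099) and SLC1A4 (-0.29, SE 0.06, adjusted p = 0.0083) were lower too. The other 4 tested were not called. Among them were SLC7A5 (0.0065, limma adjusted p = 0.87) and SLC38A2 (-0.013, limma adjusted p = 0.83), named after their values were seen.

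All 13 cytosolic aminoacyl-tRNA synthetases on the list, which charge tRNAs with amino acids, were tested and called lower, against 23.7% of all genes tested. Their changes ran from -0.44 to -0.14, with a median of -0.24. With TPM scaling 8 of the 13 stayed called and none was higher. SARS, the enzyme for serine, fell from 68.8 ± 2.33 to 50.3 ± 1.52 FPKM (SD, n = 3; log2 change -0.44, SE 0.04, limma adjusted p = 0.00061). YARS (-0.37, SE 0.03, adjusted p = 0.00070), VARS (-0.36, SE 0.03, adjusted p = 0.00059) and GARS (-0.31, SE 0.03, adjusted p = 0.00081), for tyrosine, valine and glycine, followed.

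Beyond the serine enzymes described above, 20 of 27 genes of serine, glycine and folate metabolism were tested. None was called higher and 10 were called lower (50%), against 11.9% and 23.7% of all genes tested. The median was -0.17, and with TPM scaling 2 were higher and 6 lower. MTHFD1L, which releases formate from mitochondria, fell from 15.4 ± 0.318 to 10.7 ± 0.555 FPKM (SD, n = 3; log2 change -0.49, SE 0.04, limma adjusted p = 0.00067). TYMS, which makes thymidylate (-0.43, SE 0.04, adjusted p = 0.00075), FPGS, which traps folates in cells (-0.36, SE 0.04, adjusted p = 0.0018), and cytosolic MTHFD1 (-0.35, SE 0.04, adjusted p = 0.0016) were also lower. SHMT1, the cytosolic counterpart of SHMT2, was not called (-0.10, adjusted p = 0.16).

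Around ASNS, 9 of 12 enzymes of asparagine, aspartate and glutamine were tested. Of these, 4 were called lower (44.4%) and 1 higher (11.1%), against 23.7% and 11.9% of all genes tested. The median was -0.12 (3 lower, 2 higher and -0.02 with TPM scaling). The gene called higher, named after its values were seen, was GLUL, glutamine synthetase (0.17, SE 0.05, limma adjusted p = 0.028). The count of genes called higher was 0 with the replicate block, without a minimum level and without 0 Gy replicate 3 or any 1 of the 10 Gy libraries. ASNSD1, a relative of ASNS (-0.31, SE 0.03, limma adjusted p = 0.0012), GOT2 (-0.25, SE 0.03, adjusted p = 0.0019), GLUD1 (-0.21, SE 0.03, adjusted p = 0.0026) and CAD (-0.18, SE 0.04, adjusted p = 0.016) were lower, but CAD lost its call with TPM, upper-quartile and median-of-ratios scaling.

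Around DDIT4, 14 of 19 genes of TORC1 and its inhibitors were tested, with 4 called lower (28.6%) and 1 higher (7.14%). Of all genes tested, 23.7% were called lower and 11.9% higher. The median of the list was -0.09, which was 0.02 with TPM scaling (2 lower, 3 higher) and 0.04 by voom without a minimum level (3 lower, 2 higher). Over all genes tested the median was 0.08 with TPM scaling and 0.15 by voom without a minimum level. Upper-quartile scaling gave 2 lower and 2 higher, and voom 4 lower and 4 higher. The count of 4 was 2 without 10 Gy replicate 1 or 2. TSC2, through which REDD1 acts on TORC1, rose from 4.95 ± 0.0764 to 5.95 ± 0.247 FPKM (SD, n = 3; log2 change 0.23, SE 0.04, limma adjusted p = 0.0074). EIF4EBP1 is given above, and MLST8 (-0.35, SE 0.05, adjusted p = 0.0032) and RHEB (-0.20, SE 0.05, adjusted p = 0.015), the latter not with TPM or upper-quartile scaling, were lower. In the hypoxia and glucocorticoid list, whose genes share inducers with DDIT4, 5 of 16 tested were called higher (31.25%) and 4 lower (25%), with a median of 0.02. The median was 0.13 with TPM scaling (7 higher, 2 lower), and it was negative at a minimum of 5 FPKM (-0.06) and without 0 Gy replicate 3 (-0.02) or 10 Gy replicate 2 (-0.02) or 3 (-0.01). PER1 (0.39, SE 0.08, adjusted p = 0.0086) and KDM3A (0.27, SE 0.05, adjusted p = 0.0075) rose, while ANGPTL4 (-0.37, SE 0.07, adjusted p = 0.0074) and SGK1 (-0.34, SE 0.05, adjusted p = 0.0028) fell. The 4 lower calls became 2 without 0 Gy replicate 2 or 10 Gy replicate 1 or 2.

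The other branches of the unfolded protein response, run by IRE1 and ATF6, were mixed. All 18 genes were tested, and 3 were called higher (16.7%) and 5 lower (27.8%), against 11.9% and 23.7% of all genes tested. The median of -0.03 was near that of all genes, turning to 0.10 with TPM scaling (7 higher, 1 lower), 0.06 with upper-quartile and 0.02 with median-of-ratios scaling, 0.05 with voom and 0.04 with voom without a minimum level. In the same order of settings, the median of all genes tested was 0.08, 0.04, 0.0008, 0.03 and 0.15. MANF (-0.32, SE 0.06, limma adjusted p = 0.0091), DNAJB9 (-0.24, SE 0.05, adjusted p = 0.012) and XBP1 (-0.24, SE 0.05, adjusted p = 0.0079) were lower, the last 2 not with TPM scaling, and SEL1L, of protein degradation at the endoplasmic reticulum, was higher (0.19, SE 0.04, adjusted p = 0.0067). HSPA5, the chaperone BiP and the most used marker of this response, was at 253 FPKM at 0 Gy and 249 FPKM at 10 Gy and was not called (-0.02, adjusted p = 0.68).

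**Figure D5:**
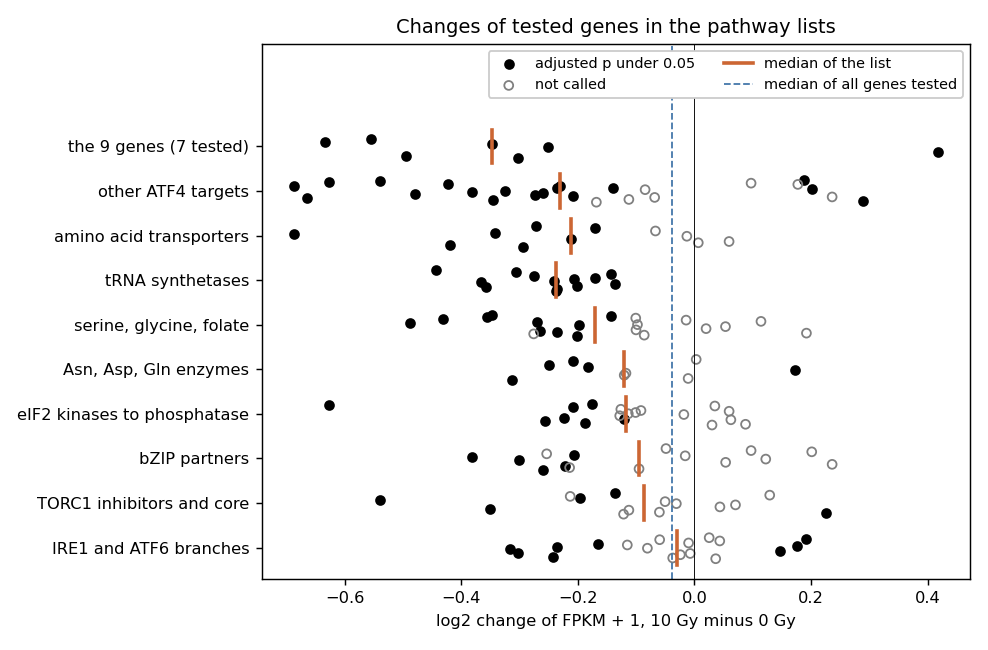
Change of each tested gene on the log2(FPKM + 1) scale, 10 Gy minus 0 Gy (horizontal axis), by list (rows), with called genes filled, other genes open, list medians as bars and the median of all genes tested as a dashed line. All 13 tRNA synthetases and 15 of 25 other ATF4 targets are called lower, against 23.7% of all genes tested. With TPM scaling the medians of the eIF2, bZIP, TORC1 and IRE1 and ATF6 rows turn positive, the last also with every other scaling and voom, and TORC1 also by voom without a minimum level. The median of all genes tested is positive in each of these settings too, at 0.08 with TPM scaling against -0.04 as deposited.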

How the data were processed

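RNA sequencing of 6 polyA libraries was analysed, 3 per dose, grouped by the treatment label. The authors deposited FPKM values per gene. The paper names paired-end reads, and the submitters' processing notes name HISAT2 and GRCh38. The counting program and its use of strand are not given in the sources used here. Identifiers, lengths and coordinates matched GENCODE 29. No value column lacked a sample (0 columns). Libraries of shMAFF cells were not analysed here. Each FPKM multiplied by gene length and implied depth gave whole reads for 100% of values above 0, within 0.05. These reads served for depth and for voom.

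Genes averaging 1 FPKM or more were fitted on log2(FPKM + 1) in R 4.3.3 with limma 3.58.1 (eBayes with trend, no block, two-sided), with Benjamini-Hochberg adjustment over all genes tested. Ratios were compared in Python 3.11.15 with scipy 1.17.1 by exact permutation, and figures drawn with matplotlib 3.10.9. The limma fit was tested on simulated data without a factor per library, so that test does not bear on the scaling.

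The genes and lists were chosen with earlier results of these data known. Named genes were all 9, and from each list up to 4 called genes without overlap between doses, by size of change. Where fewer than 2 qualified, those of highest level were added. For ATF4 and TRIB3, the 3 genes most alike were named. Other names were added after values were seen: the 4 eIF2 kinases, ATF3, SLC7A5, SLC38A2, SHMT1, GLUL, HSPA5, MARS, PSPHP1, AC079781.5 and other overlapping genes, the 3 targets called higher, and markers at or near 0. Alternatives were other pseudocounts, filters, scalings and variance models, voom, the replicate block and each library left out. Depth differed by library, and with 3 libraries a dose small changes may be missed.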

Additional observations from a re-analysis of the deposited data

How the results depend on the processing

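Under 18 alternatives, 2 of them chosen after seeing the data, 128 of 132 values for the 9 genes kept their direction, side of the threshold and rough size. None reversed, and PSPH lost its call under 2. Leaving out single libraries left all 7 calls in place. The other exceptions were both for ASNS, untested at its level, which kept its direction without a call but moved in size from -0.14. Its change was -0.38 by limma without a filter at a pseudocount of 0.1 (adjusted p = 0.42) and -0.44 by voom without a filter (adjusted p = 0.27). The number of genes called was 4317 and ranged from 2651 to 3975 with 1 library left out, with the lowest values of 2711 and 2651 without 10 Gy replicate 1 or 2. The 1443 genes called higher became 3113 with TPM scaling, 2556 with upper-quartile scaling, 2844 with voom, 3071 with voom without a filter, 874 at a minimum of 5 FPKM and 846 to 1388 with 1 library left out. The 2874 called lower became 1066 with TPM scaling, 1444 with upper-quartile scaling, 1884 with voom, 1602 with voom without a filter, 1815 without a filter and 1805 to 2621 with 1 library left out. The share of calls that were lower was 66.6% as deposited, 25.5% with TPM, 51.3% with median-of-ratios, 36.1% with upper-quartile scaling, 39.8% with voom and 34.3% with voom without a filter. The cause was not tested. Among marker genes, MSN changed sign with TPM scaling (0.0043), and GATA3 with TPM scaling (0.063), upper-quartile scaling (0.024), voom (0.010) and voom without a filter (0.00775). No pairing by replicate number was detectable. The deviations of libraries with the same number correlated at -0.04, -0.03 and -0.10, and those with different numbers at -0.05 to 0.09. With 3 libraries a dose, such values cannot show whether the numbers mark a shared culture. With the replicate block 3503 genes were called, 1137 higher and 2366 lower, and all 7 genes kept their calls. Depth limits mainly PHGDH and ASNS.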

Other observations

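Targets of NRF2, the factor of the oxidative stress response, were mostly lower after 10 Gy. Of 12 tested, 11 were called lower (91.7%) and none higher, against 23.7% and 11.9% of all genes tested. The median log2 change was -0.38, and with TPM scaling 8 were lower and the median was -0.28. SLC7A11, which belongs to the ATF4 lists too, changed by -0.69 (SE 0.06, limma adjusted p = 0.00059). TXNRD1, which reduces thioredoxin (-0.56, SE 0.04, adjusted p = 0.00044), NQO1, a quinone reductase (-0.51, SE 0.04, adjusted p = 0.00062), and SRXN1, which repairs peroxiredoxins (-0.50, SE 0.06, adjusted p = 0.0015), followed. Of 10 genes of the mitochondrial stress response, 6 were called lower (60%) and none higher, with a median of -0.23, whereas TPM scaling gave 4 lower and 3 higher. OMA1, the protease that passes mitochondrial stress on to eIF2, was at 1.86 FPKM at 0 Gy and 1.21 at 10 Gy (-0.37, SE 0.06, adjusted p = 0.0045), and the mitochondrial chaperones HSPA9 (-0.31, SE 0.03, adjusted p = 0.00070) and TRAP1 (-0.27, SE 0.05, adjusted p = 0.0075) and the protease LONP1 (-0.30, SE 0.03, adjusted p = 0.00085) were lower, TRAP1 not with TPM scaling.

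Of 15 proliferation markers, 7 were called lower (46.7%) and 6 higher (40%), against 23.7% and 11.9% of all genes tested. RRM2 (-0.68, SE 0.03, limma adjusted p = 0.00023), PCNA (-0.48, SE 0.05, adjusted p = 0.00074) and MCM5 (-0.45, SE 0.04, adjusted p = 0.00059), genes of DNA replication, fell, while AURKA, a mitotic kinase, rose (0.49, SE 0.03, adjusted p = 0.00035). Of 14 p53 targets tested, 3 were called lower (21.4%) and 2 higher (14.3%), near the shares of all genes tested. With TPM scaling 1 was lower and 4 were higher. GADD45A (-0.66), CDKN1A (-0.30, SE 0.06, adjusted p = 0.010) and TP53I3 (-0.28, SE 0.05, adjusted p = 0.0077) fell, the last 2 not with TPM scaling, and RRM2B rose (0.28, SE 0.05, adjusted p = 0.0054). The part of these shifts in the results for the 9 genes was not tested. Among MDA-MB-231 markers 5 of 8 were called lower (62.5%) and none higher, led by CAV1 (-0.26, SE 0.03, adjusted p = 0.0015), ANXA1 (-0.26, SE 0.04, adjusted p = 0.0024) and VIM (-0.26, SE 0.04, adjusted p = 0.0029). None of the 3 luminal markers tested was called by limma, with ERBB2 at 0.10 (adjusted p = 0.16) and GATA3 at -0.04 (adjusted p = 0.65).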
